A study of Mus musculus with 12 samples.

Results

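*Cebpa*, *Cebpb*, *Cebpd* and *Cebpg* encode 4 members of the C/EBP family of transcription factors. They were taken by gene name from the 55401 genes measured in mouse whole kidney, and all 4 were among the 14159 genes that passed the expression filter. The kidneys came from male C57BL6 mice aged 8 weeks, 6 given the vehicle (15% 2-hydroxypropyl-beta-cyclodextrin) and 6 given SK-124, a selective inhibitor of SIK2 and SIK3, at 40 mg/kg. Both were single intraperitoneal injections, the mice carried no transgene or engineered allele, and each mouse gave 1 library. The comparison addressed how SIK inhibition changes kidney transcripts, and the study text names no separate sampling time for these libraries.

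C/EBP proteins bind DNA through a basic region and pair through a leucine zipper, as homodimers or as heterodimers with each other and with related factors. C/EBPα drives differentiation and metabolic genes in liver, fat and myeloid cells, whereas *Cebpb* and *Cebpd* are early response genes induced by cytokines, glucocorticoids and cAMP. C/EBPγ lacks a classical activation domain and acts mainly through the partners it joins. SIKs keep the CRTC coactivators phosphorylated in the cytoplasm, and when SIKs are inhibited CRTCs enter the nucleus and act with CREB at cAMP response elements.

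Expected counts summed to 19350134 to 19771802 in vehicle mice and to 19244227 to 19530313 in SK-124 mice. The 10 largest genes took 44.4% to 46.8% of counts in SK-124 mice 1 to 3, above the 38.6% to 43.2% of the other 9 mice. The proximal tubule markers that define kidney cortex were present in every mouse, with a summed level of 7040 to 7970 CPM (counts scaled to library size by TMM) with vehicle and 6510 to 8380 CPM with SK-124, and 0 of 5 passed the test. The first of these, the phosphate transporter gene *Slc34a1*, was called lower in 3 alternatives, with log2 fold changes of -0.19 with library totals and -0.26 in both TPM fits. The vitamin D genes, which the study followed in this tissue, differed between the groups. *Cyp27b1*, the enzyme that makes active vitamin D, was at 5.46 ± 2.16 CPM with vehicle and 32.4 ± 9.12 CPM with SK-124 (mean ± SD, n = 6 each). *Cyp24a1*, the enzyme that degrades it and a gene at which C/EBPβ cooperates with the vitamin D receptor, was at 77.5 ± 43.8 and 15.4 ± 15.2 CPM. Its log2 fold change was -2.32, or -3.02 without SK-124 mouse 4, which held 44.6 CPM where the next SK-124 mouse held 17.7 CPM. Without vehicle mouse 1, which held 146 CPM, it was -2.04. The groups overlapped, as the lowest vehicle mouse was at 41.3 CPM. The receptor gene *Vdr* was lower, with a log2 fold change of -0.50 (FDR = 0.000169, edgeR's quasi-likelihood test, Benjamini-Hochberg adjusted).

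In genome build GRCm38, *Cebpa* (ENSMUSG00000034957.10) lies on chromosome 7 at 35119293 to 35121928 on the plus strand. *Cebpg* (ENSMUSG00000056216.9) lies at 35046422 to 35056573 of the same chromosome on the minus strand, 62719 bases away. *Cebpb* (ENSMUSG00000056501.3), a gene with 1 annotated transcript, occupies 167688915 to 167690418 of chromosome 2, and *Cebpd* (ENSMUSG00000071637.5) occupies 15887286 to 15891031 of chromosome 16, both on the plus strand. *Cebpb* overlaps 908 bases of *Tmem189*, and *Cebpd* overlaps 1808 bases of *Spidr*, each on the opposite strand. Whether counting used strand was not given in the sources used here, so reads from these overlaps cannot be assigned with certainty. *Tmem189* was at 201 ± 11.8 CPM with vehicle and 293 ± 24.5 CPM with SK-124, higher by 0.54 on the log2 scale (FDR = 4.62e-06, edgeR). These levels were above those of *Cebpb* in both groups, at 15.1 ± 2.6 and 61.5 ± 12.2 CPM. *Spidr* was at 4.64 ± 0.47 and 5.47 ± 0.249 CPM (FDR = 0.0611, edgeR). Its mean was above that of *Cebpd* with vehicle, at 4.16 ± 1.36 CPM, and below it with SK-124, at 56.5 ± 12.7 CPM.

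RefSeq promoter windows on GRCm38.p6 were matched for 3 of the 4 genes, and the 250 bases before the start are shown for the called pair among them because *Cebpb* and *Cebpa* moved in opposite directions. The windows are chr2:167688665-167688914 for *Cebpb* and chr7:35119043-35119292 for *Cebpa*, both read on the plus strand. Capitals mark TGACG, the core of the cAMP response element, or its reverse complement.
Cebpb: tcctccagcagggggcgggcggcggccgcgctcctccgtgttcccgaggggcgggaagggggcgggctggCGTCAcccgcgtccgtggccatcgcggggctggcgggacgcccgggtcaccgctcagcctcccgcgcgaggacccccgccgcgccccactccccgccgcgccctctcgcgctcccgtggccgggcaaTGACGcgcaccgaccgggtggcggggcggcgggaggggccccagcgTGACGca
Cebpa: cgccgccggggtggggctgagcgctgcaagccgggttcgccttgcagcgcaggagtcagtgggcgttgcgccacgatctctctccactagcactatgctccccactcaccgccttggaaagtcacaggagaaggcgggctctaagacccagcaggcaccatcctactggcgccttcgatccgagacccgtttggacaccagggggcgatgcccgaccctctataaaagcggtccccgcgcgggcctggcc
The *Cebpb* window held 3 TGACG cores. The first lay 180 to 176 bases before the start on the minus strand, and the others lay 53 to 49 and 7 to 3 bases before it on the plus strand. Of 32851 promoter windows of this length, 17.8% held at least 1 such core, 3.9% at least 2 and 0.688% at least 3. The *Cebpb* window was also rich in G and C, at 81.6%, against a median of 52.4% over all windows. A further 5 motifs, of which the first contains TGACG, were searched on both strands in the 3 windows. They were the full cAMP response element TGACGTCA (1.55% of all windows), the palindromic C/EBP site TTGCGCAA (0.164%), the wider TTGCNNAA that includes it (9.56%), the STAT site TTCNNNGAA (7.02%) and the glucocorticoid response element (0.00913%). None of these occurred in the *Cebpa*, *Cebpb* or *Cebpg* windows, and TGACG did not occur in those of *Cebpa* and *Cebpg*. A match describes letters in this window and not binding.

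The C/EBP genes did not move together. With SK-124, *Cebpd* rose 13.5-fold and *Cebpb* 4.07-fold, *Cebpa* fell 2.06-fold, and *Cebpg* did not pass the test. Thus 3 of the 4 were called at an FDR under 0.05, against 24.4% of all genes tested. In the upward direction 2 were called, against 10.8% of all genes, and in the downward direction 1, against 13.5%. The groups did not overlap for 3 of the 4, against 13.0% of all genes. With library totals in place of TMM, 20.3% of called genes were higher, against 44.5% with TMM, and the 3 C/EBP calls kept their direction. In bulk kidney, fewer cells of a type and less RNA per cell cannot be told apart.

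**Figure D1:**
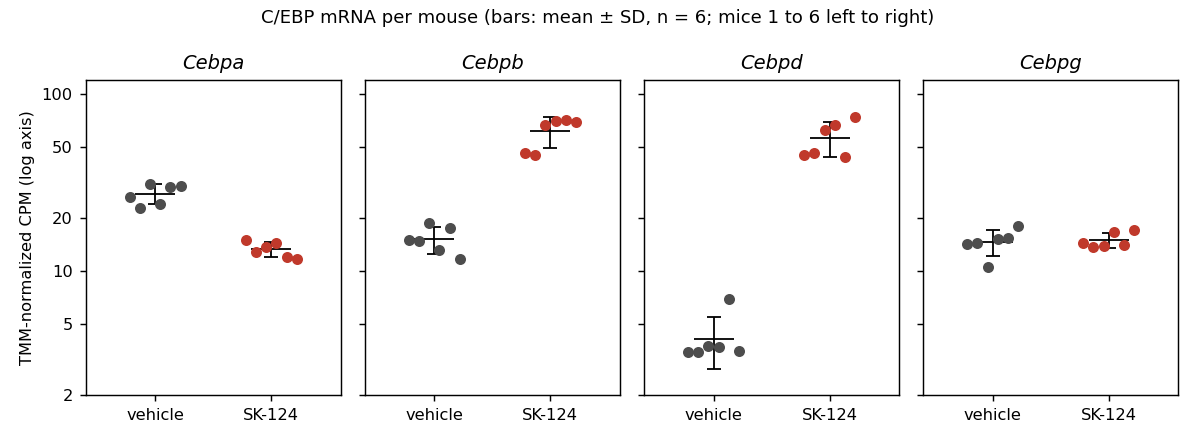
TMM-normalized CPM of the 4 C/EBP genes in each mouse, on a log axis, with vehicle in grey and SK-124 in red. Points are mice 1 to 6 from left to right and bars are the mean ± SD (n = 6). *Cebpb* and *Cebpd* lay higher in all SK-124 mice than in any vehicle mouse, *Cebpa* lay lower in all of them, and the *Cebpg* values overlapped.

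*Cebpd*, which encodes C/EBPδ, was the scarcest of the 4 in vehicle mice. It ranged from 3.47 to 6.93 CPM with a median of 3.64 in vehicle mice, and from 44.2 to 73.5 CPM with a median of 54.7 in SK-124 mice. In expected counts these were 70 to 146 and 783 to 1451 reads per mouse. Every SK-124 mouse therefore lay well above every vehicle mouse. The log2 fold change was 3.76 (SE 0.18, FDR = 1.41e-10, edgeR), and an exact permutation test of the 12 values gave a two-sided p = 0.00216, the smallest that 6 against 6 allows. By this log2 fold change *Cebpd* ranked 12 from the top of 14159 genes. Vehicle mouse 5 held the 6.93 CPM, and the next highest vehicle mouse was at 3.78 CPM. Without vehicle mouse 5 the log2 fold change of *Cebpd* was 3.97.

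*Cebpb* encodes C/EBPβ, whose activating and inhibitory protein forms are translated from the same mRNA and are not separated by gene counts. In vehicle mice its level ran from 11.7 to 18.7 CPM with a median of 14.9, and in SK-124 mice from 45.4 to 71.3 CPM with a median of 67.8. The SK-124 mice were uneven, with mice 1 and 2 at 46.5 and 45.4 CPM and mice 3 to 6 between 66.3 and 71.3 CPM. The groups nonetheless stood apart. The log2 fold change was 2.02 (SE 0.13, FDR = 7.31e-09, edgeR; exact permutation p = 0.00216), which ranked 56 from the top. It was 1.80 when SK-124 mice 1 to 3 alone were compared with the vehicle mice and 2.22 with mice 4 to 6 alone. The share of the 10 largest genes was 46.8%, 45.6% and 44.4% in mice 1, 2 and 3. Mouse 3 lay near mice 4 to 6 in *Cebpb* CPM but lower in TPM, at 39.42 against 47.97 to 51.22. Whether this share bears on the *Cebpb* level was not tested.

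*Cebpa*, which encodes C/EBPα, was the highest of the 4 in CPM in vehicle mice and moved the other way. Vehicle mice held 22.8 to 31.1 CPM with a median of 27.9, and SK-124 mice 11.7 to 14.9 CPM with a median of 13.2. The lowest vehicle mouse was above the highest SK-124 mouse. The log2 fold change was -1.05 (SE 0.09, FDR = 1.55e-07, edgeR; exact permutation p = 0.00216), 163 from the bottom of the ranking. The antisense gene *Gm45091*, which overlaps *Cebpa*, had at most 3 counts in any mouse.

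*Cebpg*, which encodes C/EBPγ, lies next to *Cebpa* but did not share its change. Its level was 10.5 to 18 CPM with a median of 14.8 in vehicle mice, and 13.6 to 17.0 CPM with a median of 14.2 in SK-124 mice. The ranges overlapped. The log2 fold change was 0.03, with an interval of 2 SE from -0.17 to 0.24 (FDR = 0.85, edgeR; exact permutation p = 0.745). A change of the size seen in *Cebpa* lies outside this interval. The 4 annotated transcripts of *Cebpg* differ in length, and the effective length assigned to the gene ran from 2500 to 3274 bases between mice, so its TPM carries isoform estimates as well as counts.

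**Figure D2:**
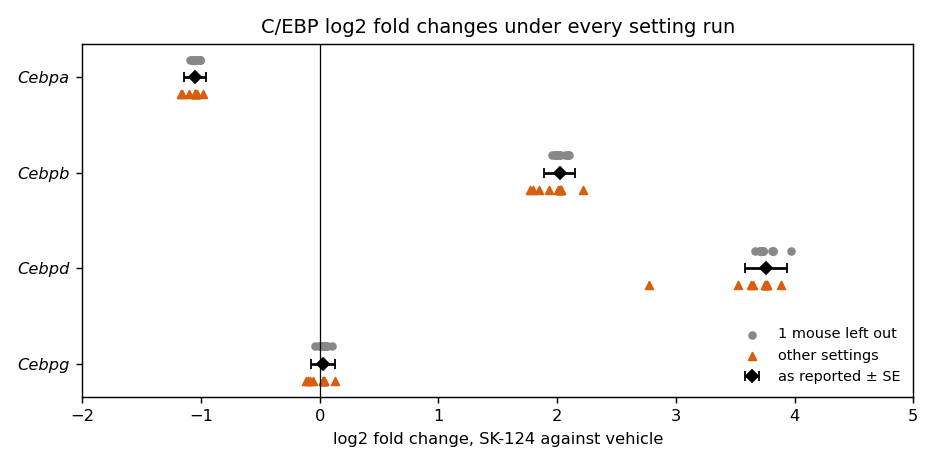
Log2 fold change of the 4 C/EBP genes, SK-124 against vehicle, under every setting run. Black diamonds are the reported values ± SE, grey points leave out 1 mouse each and orange triangles are the other settings. *Cebpb* and *Cebpd* stayed above 0 and *Cebpa* below 0 in all 23 alternatives, and *Cebpg* fell on both sides of 0.

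Levels of different genes can be set side by side per length, in TPM. With vehicle, *Cebpb* (10.7 ± 1.74 TPM) and *Cebpa* (10.4 ± 1.64 TPM) stood at about the same level, above *Cebpg* (4.91 ± 0.901 TPM) and *Cebpd* (1.09 ± 0.407 TPM). With SK-124 the order was *Cebpb* (40 ± 11.4 TPM), *Cebpd* (13.5 ± 3.93 TPM), and then *Cebpa* (4.53 ± 0.48 TPM) and *Cebpg* (4.52 ± 0.86 TPM), which did not differ beyond their spread. The summed level of the 4 genes was 27.1 ± 3.14 TPM with vehicle and 62.6 ± 15.5 TPM with SK-124, and the SK-124 range of 42.3 to 78.7 TPM lay above the vehicle range of 23.7 to 32.8 TPM.

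The mixture of the 4 transcripts differed between the groups. *Cebpa* made up 38.3 ± 3.65% of the summed TPM with vehicle and 7.56 ± 1.72% with SK-124. *Cebpd* made up 3.96 ± 0.949% and 21.7 ± 2.85%, and *Cebpb* made up 39.5 ± 4.35% and 63.4 ± 4.21%. The share of *Cebpg* was lower with SK-124, at 7.40 ± 1.27% against 18.2 ± 3.66%, while its own level was not called different. The log2 ratio of *Cebpb* to *Cebpa* TPM was 0.04 ± 0.27 with vehicle and 3.09 ± 0.39 with SK-124, and that of *Cebpd* to *Cebpa* was -3.30 ± 0.36 and 1.54 ± 0.37. These are descriptions of mRNA and were not tested, and they say nothing of protein.

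**Figure D3:**
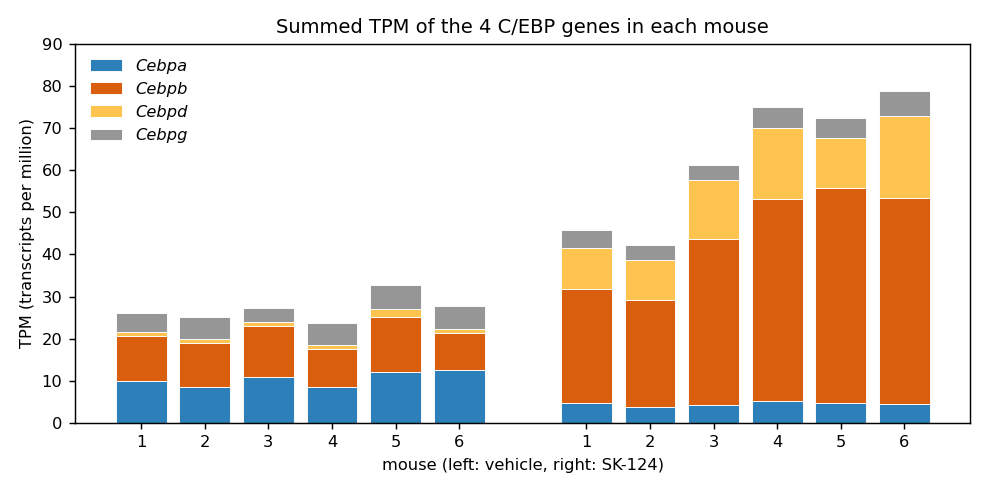
Stacked TPM of the 4 C/EBP genes in each of the 6 vehicle mice (left) and 6 SK-124 mice (right). The stacks reach 23.7 to 32.8 TPM with vehicle and 42.3 to 78.7 TPM with SK-124, where *Cebpb* and *Cebpd* fill most of each stack.

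Further genes of the C/EBP family or name, and genes that partner or regulate C/EBP proteins, were read in the same fit. Of 10 such genes 8 were tested, of which 3 rose, 1 fell and 4 did not pass. Their median log2 fold change was 0.19 against -0.01 over all genes tested. Over all genes tested 24.4% were called, 10.8% higher and 13.5% lower, and these shares stand beside each list count below. *Trib1* and *Trib2* encode adaptors that bring the ubiquitin ligase COP1 to C/EBPα, and they moved in opposite directions. *Trib1* rose from 11.9 ± 1.5 to 22.3 ± 5.01 CPM (log2 fold change 0.91, FDR = 4.43e-05, edgeR), and *Trib2* fell from 33.0 ± 5.31 to 14.1 ± 2.47 CPM (-1.23, FDR = 5.86e-07, edgeR). *Atf4*, a related stress factor, rose by 0.44 (FDR = 0.00115, edgeR), a call lost in 2 of 23 alternatives. *Cebpz*, which has the family name but no basic leucine zipper, was higher by 0.23 (FDR = 0.0244, edgeR), a call lost in 6 alternatives and turned to -0.08 and -0.09 in the 2 TPM fits. *Cop1*, *Celf1*, *Fbxw7* and *Ddit3* had log2 fold changes of 0.01, 0.02, 0.15 and 0.37 and did not pass. *Cebpe* and *Trib3* had too few counts to be tested, at most 16 in any mouse.

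**Figure D4:**
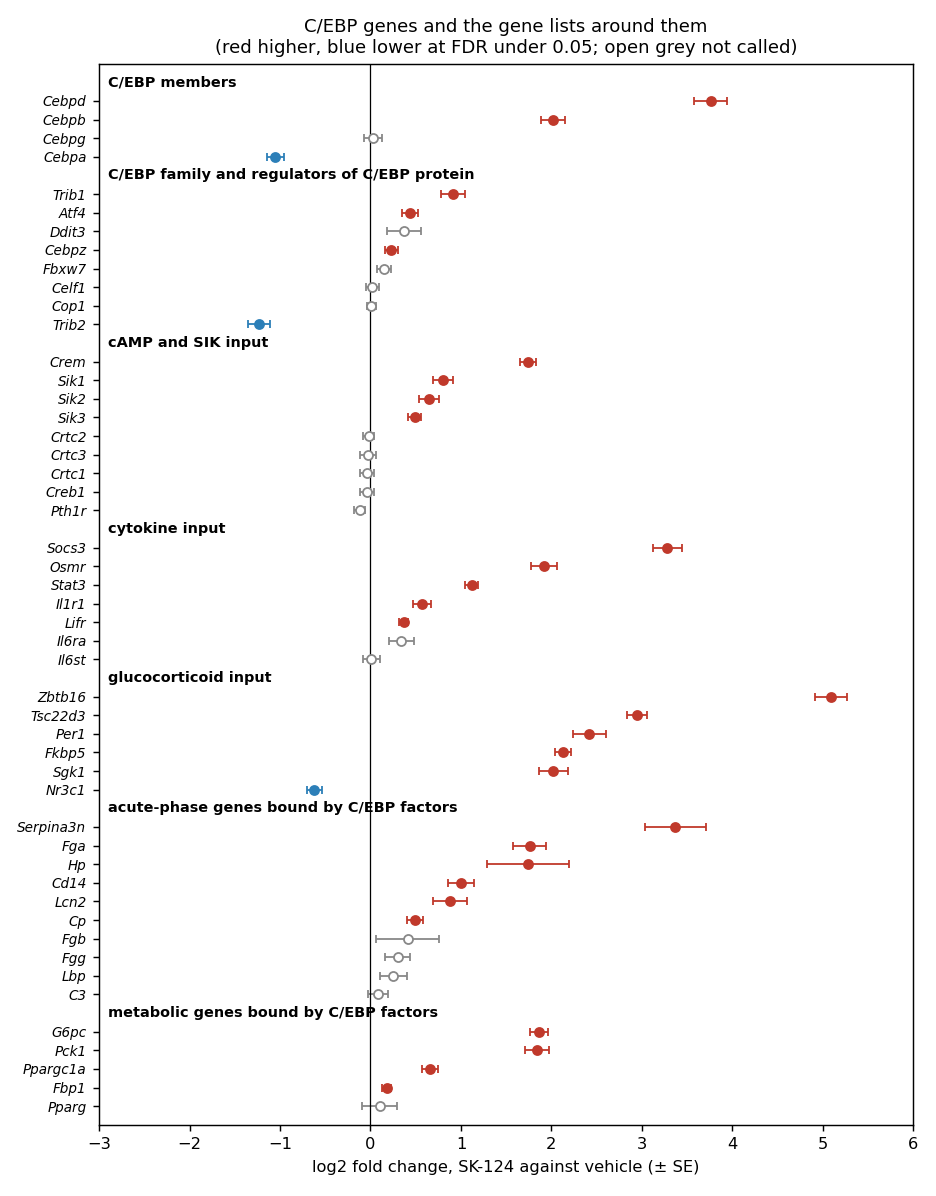
Log2 fold change ± SE, SK-124 against vehicle, of the tested genes of the C/EBP family, its regulators, 3 groups of inputs and 2 groups of genes bound by C/EBP factors. Red marks genes higher and blue genes lower at an FDR under 0.05 and open grey symbols mark genes not called. *Cebpd* and *Cebpb* lie to the right and *Cebpa* to the left, and the glucocorticoid group holds 5 red genes and 1 blue gene.

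Genes of the cAMP and SIK route, which is known to induce *Cebpb*, gave 4 called of 9, all higher, with a median log2 fold change of -0.02. *Crem*, a CREB target that encodes a cAMP-inducible repressor, rose from 5.11 ± 0.671 to 17.1 ± 1.91 CPM (1.74, FDR = 5.5e-10, edgeR). *Sik1*, *Sik2* and *Sik3*, the kinase genes themselves, rose by 0.80, 0.65 and 0.49 on the log2 scale. *Crtc1*, *Crtc2*, *Crtc3*, *Creb1* and the PTH receptor gene *Pth1r* lay between -0.12 and -0.02 and did not pass, although CRTCs and CREB are controlled chiefly at the protein level.

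Of the 8 genes of the cytokine route to *Cebpb* and *Cebpd*, 7 were tested and 5 rose, with a median log2 fold change of 0.57. *Socs3*, a STAT3 target that restrains cytokine receptors, rose from 2.06 ± 0.401 to 20 ± 4.38 CPM (3.28, FDR = 1.61e-10, edgeR). The oncostatin M receptor gene *Osmr* rose by 1.92, *Stat3* by 1.12, the interleukin-1 receptor gene *Il1r1* by 0.57 and *Lifr* by 0.37 on the log2 scale, the last pair losing the call in 2 alternatives each. The shared receptor subunit gene *Il6st* and *Il6ra* had log2 fold changes of 0.01 and 0.34 and did not pass, and *Il6* had at most 7 counts in any mouse.

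All 6 genes of the glucocorticoid route were called, against 24.4% of all genes tested, with a median log2 fold change of 2.27. The 5 genes listed as targets rose, although a place on this list does not mean that a gene answers to this route alone. *Zbtb16* rose by 5.09, *Tsc22d3* by 2.95, *Per1* by 2.42, *Fkbp5* by 2.13 and *Sgk1* by 2.02, and the receptor gene *Nr3c1* fell by 0.62 on the log2 scale. *Tsc22d3*, for example, was at 10.4 ± 1.96 CPM with vehicle and 80.6 ± 11.2 CPM with SK-124, and its groups did not overlap. Thus some genes of each of the 3 routes differed between the groups, as *Cebpb* and *Cebpd* did. In the cAMP and SIK list 5 of 9 genes did not pass and the median was -0.02. That list holds mostly parts of the route and the glucocorticoid list mostly targets, so their counts and medians cannot be compared. The lists were chosen with earlier results of these data known, and the part of these genes in the change was not tested.

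Acute-phase genes, textbook targets of C/EBPβ and C/EBPδ in liver, were mostly low in kidney. Of 17, 10 were tested, of which 6 rose, 0 fell and 4 did not pass, with a median log2 fold change of 0.69. *Serpina3n* rose from 0.156 ± 0.0668 to 1.65 ± 0.648 CPM, and *Fga*, a fibrinogen chain gene, from 15.4 ± 1.97 to 52.0 ± 17.4 CPM. *Hp* was also low, at 0.486 ± 0.314 CPM with vehicle and 1.64 ± 1.06 CPM with SK-124. *Serpina3n* and *Hp* passed the expression filter through their SK-124 levels and were absent from the fit that required 10 counts in every mouse. *Hp*, *Cd14*, *Lcn2* and *Cp* rose by 1.74, 1.0, 0.88 and 0.49 on the log2 scale, and *Hp* and *Lcn2* each lost the call in 1 alternative. The other fibrinogen chain genes *Fgb* and *Fgg* had log2 fold changes of 0.41 and 0.30 and did not pass, nor did *C3* and *Lbp* at 0.08 and 0.25. The 7 untested genes had at most 11 counts in any mouse, and *Orm2*, *Saa1* and *Saa2* were at 0 in all mice.

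Of 6 metabolic genes bound by C/EBP factors, 5 were tested, of which 4 rose and 1 did not pass, with a median log2 fold change of 0.66. The gene that did not pass was *Pparg*, the adipogenic nuclear receptor gene, at 0.10, and *Cps1*, a urea cycle gene, had at most 3 counts in any mouse and was not tested. The gluconeogenic genes *Pck1* and *G6pc* rose by 1.84 and 1.86 on the log2 scale, *Pck1* from 634 ± 138 to 2270 ± 344 CPM and *G6pc* from 301 ± 44.4 to 1090 ± 146 CPM. The coactivator gene *Ppargc1a* rose by 0.66 and *Fbp1* by 0.18, the last a call lost in 5 alternatives. cAMP and glucocorticoids are also known to act on *Pck1* and *G6pc*.

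*Cebpa*, *Cebpb* and *Cebpd* are also expressed in blood and fat cells, so markers of such cells were read beside them. Of the 7 neutrophil markers 3 were tested, and *S100a8* and *S100a9* were higher with log2 fold changes of 3.10 and 3.16, or 4.09 and 3.92 without vehicle mouse 5. Both were near the floor with vehicle, at 0.161 ± 0.206 and 0.153 ± 0.162 CPM, against 1.45 ± 0.592 and 1.44 ± 0.514 CPM with SK-124. They passed the expression filter through their SK-124 levels and were absent from the fit that required 10 counts in every mouse. *Csf3r* had a log2 fold change of 0.57 and did not pass (FDR = 0.0802, edgeR). *Retnlg*, with too few counts to be tested, was at 0 to 0.19 CPM with vehicle and 0.401 to 1.49 CPM with SK-124, without overlap. The summed level of the 7 was 0.592 to 2.23 CPM with vehicle and 3.06 to 7.82 CPM with SK-124, without overlap. The sum was therefore higher in the same group as *Cebpb* and *Cebpd*. Of the remaining markers, *Ly6g*, *Elane* and *Mpo* had at most 2, 1 and 0 counts in any mouse. Of 7 macrophage markers 2 fell and 5 did not pass. *Cx3cr1* fell by 2.10 and *Cd68* by 0.60 on the log2 scale, the latter a call lost in 1 alternative. *Cx3cr1* was at 2.78 ± 0.566 CPM with vehicle and 0.647 ± 0.207 CPM with SK-124. It passed the expression filter through its vehicle levels and was absent from the fit that required 10 counts in every mouse. The summed level of the macrophage markers was 65.6 to 84.7 CPM with vehicle and 69.0 to 85.8 CPM with SK-124. None of the tested adipocyte (2 of 7), hepatocyte (5 of 5) and red blood cell (5 of 5) genes passed. Among markers of other nephron segments, the collecting duct water channel gene *Aqp2* was higher by 0.75 on the log2 scale, and the part of these marker changes in the C/EBP results was not tested.

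Within groups the highest r among the 4 genes was that of *Cebpb* and *Cebpd*. After the group means were subtracted, Pearson's r over the 12 mice was 0.54 for *Cebpb* and *Cebpd*, 0.32 for *Cebpd* and *Cebpg*, 0.17 for *Cebpa* and *Cebpd*, -0.03 for *Cebpa* and *Cebpb*, -0.14 for *Cebpa* and *Cebpg* and -0.24 for *Cebpb* and *Cebpg*. With 12 mice these r values are imprecise, and they are descriptions over mice that share a library scaling. The nearest genes are the highest r picked from 13008 genes averaging 1 CPM or more, so their r is high in part through that choice. Those nearest to *Cebpd* were *Btg2* (r = 0.91), *Dact1* (0.89) and *AA986860* (0.87). Vehicle mouse 5 stood apart as the highest of its group for *Cebpd*, *Btg2* and *Dact1*, so 1 mouse weighs on the first 2 of these values. *Cebpb* was nearest to *Akr1b8* (0.96), *Chpf* (0.94) and *Krt7* (0.91), *Cebpa* to *Lpar2* (0.85), *H2-DMa* (0.84) and *Immp1l* (0.84), and *Cebpg* to *Ccrl2* (0.94), *Gvin1* (0.92) and *Gbp9* (0.91). High r in these genes did not carry the same change with SK-124. *Btg2* was higher by 1.61 and *Lpar2* lower by 1.10 on the log2 scale, in the direction of *Cebpd* and *Cebpa*. *Chpf* and *Immp1l* had log2 fold changes of 0.01 and 0.06. *AA986860* had a log2 fold change of -0.40 where *Cebpd* rose, and *Ccrl2* and *Gbp9* had log2 fold changes of -0.93 and -0.62 where *Cebpg* was not called.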

How the data were processed

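Per the labels, whole-kidney RNA was sequenced on the BGISEQ-500 platform. The authors deposited RSEM gene tables holding expected counts (reads estimated for each gene by RSEM) and TPM, which RSEM scaled to length and library. The submitters' processing notes name FastQC, STAR 2.7.2b, RSEM 1.3.0, DESeq2 and mm10, and the annotation release was not given in the sources used here. Deposited effective lengths were used only as described. The C/EBP members and gene lists were chosen with earlier results of these data known.

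Identifiers were matched to GENCODE M21 (54349 of 55401 with version). Expected counts were rounded, scaled by TMM, filtered with filterByExpr and tested with edgeR 4.0.16 (glmQLFit and glmQLFTest, all 12 mice, no covariate), and FDR is the Benjamini-Hochberg adjusted p over 14159 genes, called under 0.05. SE is the log2 fold change divided by the root of F. The biological coefficient of variation was 0.101. Permutation tests used log2(CPM + 0.5). Alternatives used DESeq2 1.42.0, limma 3.58.1, other scalings, filters and dispersion, a replicate block, and each mouse left out. Comparisons with SK-124 mice 1 to 3 or 4 to 6 only were added after seeing the data. The code was tested on simulated data. Each label is a separate mouse in the series' design, and no 2 libraries of a group agreed within counting noise (smallest chi-square per degree of freedom 4.69 over 30 pairs). Named genes were the members, all genes of the input, regulator and vitamin D lists, called genes bound by C/EBP factors, marker counts and the 3 genes nearest each member by r. *S100a8*, *S100a9*, *Csf3r*, *Pparg*, *Cps1*, *Cx3cr1*, *Cd68*, *Aqp2*, the untested marker genes and the genes overlapping a member were named after their values were seen. The same holds for *Fgb*, *Fgg*, *C3* and *Lbp*. 1 nephron marker gene is not reported here.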

Additional observations from a re-analysis of the deposited data

Results flagged for a closer look

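In 14 of 149 groups of 6 mice, over 75 genes, the highest or lowest mouse stood apart by Dixon's criterion, where chance alone flags about 7.45. Of these, 8 were vehicle mouse 5 as the highest of its group. That mouse held 6.93 CPM of *Cebpd*, 143 of *Aqp2*, 18.6 of *Btg2*, 3.42 of *Dact1*, 14.2 of *Tsc22d3*, 0.569 of *S100a8*, 0.474 of *S100a9* and 0.190 of *Retnlg*. *Btg2* and *Dact1* are 2 of the 3 genes nearest to *Cebpd* by r. They were picked by that r over these same mice, so their flags are not independent of that of *Cebpd*. Vehicle mouse 6 was highest for *Adipoq* at 1.85 CPM, and vehicle mouse 3 was lowest for *Il6st* at 65.7 CPM and for *Ppargc1a* at 54.5 CPM. In SK-124 mice, mouse 4 was highest for *Cyp24a1* at 44.6 CPM and for *Cebpe* at 0.099 CPM, and mouse 6 for *Tsc22d3* at 102 CPM.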

How the results depend on the processing

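In all 23 alternatives *Cebpa* (-1.17 to -0.98), *Cebpb* (1.77 to 2.22) and *Cebpd* (2.77 to 3.97) kept their direction and their call. *Cebpg* was called in none (FDR 0.51 to 0.99, edgeR, DESeq2 or limma). Its log2 fold change turned to -0.08 with library totals only, -0.10 and -0.12 with limma on log2(TPM + 1) and log2(TPM + 0.1), and -0.06 with SK-124 mice 1 to 3 only. With each mouse left out it ran from -0.04 to 0.10, below 0 without vehicle mouse 3 or SK-124 mouse 6. The number of genes called was 2298 with SK-124 mice 1 to 3 only and 2960 to 3942 with each mouse left out. Library totals moved the share of called genes that were higher from 44.5% to 20.3%, and the TPM fits to 19%, with medians over all genes of -0.12, -0.11 and -0.14. Replicate numbers did not pair the mice (r of same-numbered mice -0.13 to 0.22). The replicate block gave 3466 calls and log2 fold changes of -1.04, 2.01, 3.75 and 0.04 for *Cebpa*, *Cebpb*, *Cebpd* and *Cebpg*.

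Over 66 other named genes, 1407 of 1513 values kept direction and side of the threshold, 36 lost the call, 12 gained one and 58 changed sign. The tested genes *Csf3r*, *Pparg*, *Fgb*, *Fgg*, *C3* and *Lbp* were not among the 66 and were not read under the alternatives. The calls gained were those of *Slc34a1*, *Adgre1* and *Krt7* (3 each) and of *Pth1r*, *Spidr* and *Umod* (1 each). With library totals the sign changed for *Alb* (-0.01), *Celf1* (-0.10), *Chpf* (-0.10), *Cop1* (-0.10), *Gvin1* (-0.04), *Il6st* (-0.11) and *Immp1l* (-0.06). With log2(TPM + 1) and log2(TPM + 0.1) it changed for *Cebpz* (-0.08, -0.09), *Celf1* (-0.14, -0.15), *Chpf* (-0.11, -0.14), *Cop1* (-0.22, -0.23), *Creb1* (0.02, 0.04), *Gvin1* (-0.02, -0.01), *Il6st* (-0.10, -0.11) and *Immp1l* (-0.08, -0.08). With SK-124 mice 1 to 3 only it changed for *Chpf* (-0.12), *Cop1* (-0.02), *Creb1* (0.10), *Crtc1* (0.02), *Crtc2* (0.05), *Gvin1* (-0.37), *Il6st* (-0.01) and *Slc34a1* (0.000959), and with mice 4 to 6 only for *Alb* (-0.11), *Celf1* (-0.06), *Crtc3* (0.03) and *Immp1l* (-0.000376). With each mouse left out the ranges crossing 0 were *Celf1* -0.02 to 0.05, *Chpf* -0.02 to 0.06, *Cop1* -0.01 to 0.02, *Crtc2* -0.05 to 0.01, *Crtc3* -0.09 to 0.03, *Gvin1* -0.11 to 0.21, *Il6st* -0.06 to 0.06 and *Immp1l* -0.0026 to 0.13. The cause was not tested. At this depth genes with few counts, such as *Cebpe* and *Il6*, could not be tested.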
